A study of Ovis aries with 14 samples.

Results

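Genes of the cilium and the axoneme were followed in ovaries of Suffolk sheep at 2 ages. Members were the genes whose name in the files begins with CFAP, DNAH, DNAI1 or DNAI2, DNAAF, IFT, BBS, TEKT, RSPH or SPAG, which gave 72 of the 17323 genes listed in any table. They were 21 CFAP, 11 DNAH, 2 DNAI, 4 DNAAF, 3 TEKT, 5 RSPH, 7 SPAG, 14 IFT and 5 BBS genes. Of these, 71 were in the fetal table, 69 in the first adult table and 64 in the second, and 64 were in all 3. RSPH4A has no row in the fetal table used here, CFAP221, DNAAF1 and DNAH2 have none in either adult table, and CFAP65, DNAH6, DNAI2, RSPH4A and SPAG6 have none in the second adult table.

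RNA came from whole frozen ovaries of wild-type animals. Mothers of the testosterone groups were injected with testosterone propionate in cottonseed oil, 100 mg at a time and 2 times a week, from day 30 to day 90 of gestation; the label's wording also names a dose per body weight, and how the doses relate is not clear from it. Ovaries were taken from 3 control and 3 testosterone fetuses at gestational day 90 (numbers 1 to 3) and from 4 control and 4 testosterone adults at year 2 (numbers 4 to 7). The series text counts 3 controls and 4 testosterone animals in the adult comparison, while the labels give 4 of each, and the labels were followed. Treatment ended at the fetal time point and long before the adult one. The labels do not say how samples relate to mothers or litters, so each p-value reflects only how much these particular samples vary.

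A motile cilium is driven by an axoneme, a ring of microtubule doublets around a central pair. Dynein arms on the doublets, built from heavy chains (DNAH genes) and intermediate chains (DNAI genes), pull neighbouring doublets past each other, and the DNAAF proteins assemble these arms in the cytoplasm. Radial spokes (RSPH genes) link the doublets to the central pair, where SPAG6 and SPAG17 act, while tektins (TEKT genes) and many CFAP proteins stiffen or decorate the doublets. Intraflagellar transport (IFT genes) and the BBSome (BBS genes) carry cargo along cilia of every kind, including the non-motile primary cilium that most cells carry and that serves hedgehog signalling. In the female tract motile cilia are best known from the oviduct, and many axonemal genes are also transcribed in germ cells. In what follows the CFAP, DNAH, DNAI, DNAAF, TEKT, RSPH and SPAG classes are called the motile classes, although SPAG9, a scaffold of stress kinase signalling, and CFAP20, which is also found at primary cilia, have wider roles.

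The files give each value as a normalised read count, that is, reads of a gene divided by a size factor of the library. Reads recovered from these values came to between 22577382 and 33417500 per library. Control 5 and testosterone 4 are in the first adult table only, control 7 and testosterone 7 in the second only, and controls 4 and 6 and testosterone 5 and 6 in both. The 2 adult tables thus share 4 libraries and are not independent of each other. To set ages or all 8 adult libraries side by side, the recovered reads were divided by size factors computed over all 14 libraries, and such values are called scaled reads. Ovarian identity was checked on germ line genes: the germ cell helicase gene DDX4 ranged from 2808 to 5899 scaled reads in the fetal libraries and from 23.3 to 92.8 in the adult ones, and the oocyte growth factor gene GDF9 was detected in all 14. Adult libraries differed in genes of steroid-making cells: the steroid transport gene STAR was at 40695, 38697 and 54875 scaled reads in control 6, testosterone 4 and testosterone 7 and between 631 and 3729 in the other 5. A list of luteal markers averaged 2.42, 2.25 and 1.94 in those 3 libraries, relative to the mean of the 8 on the log2 scale, and from -1.79 to -0.80 in the others. In whole ovaries, fewer cells of a type and less RNA per cell cannot be told apart.

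**Figure D1:**
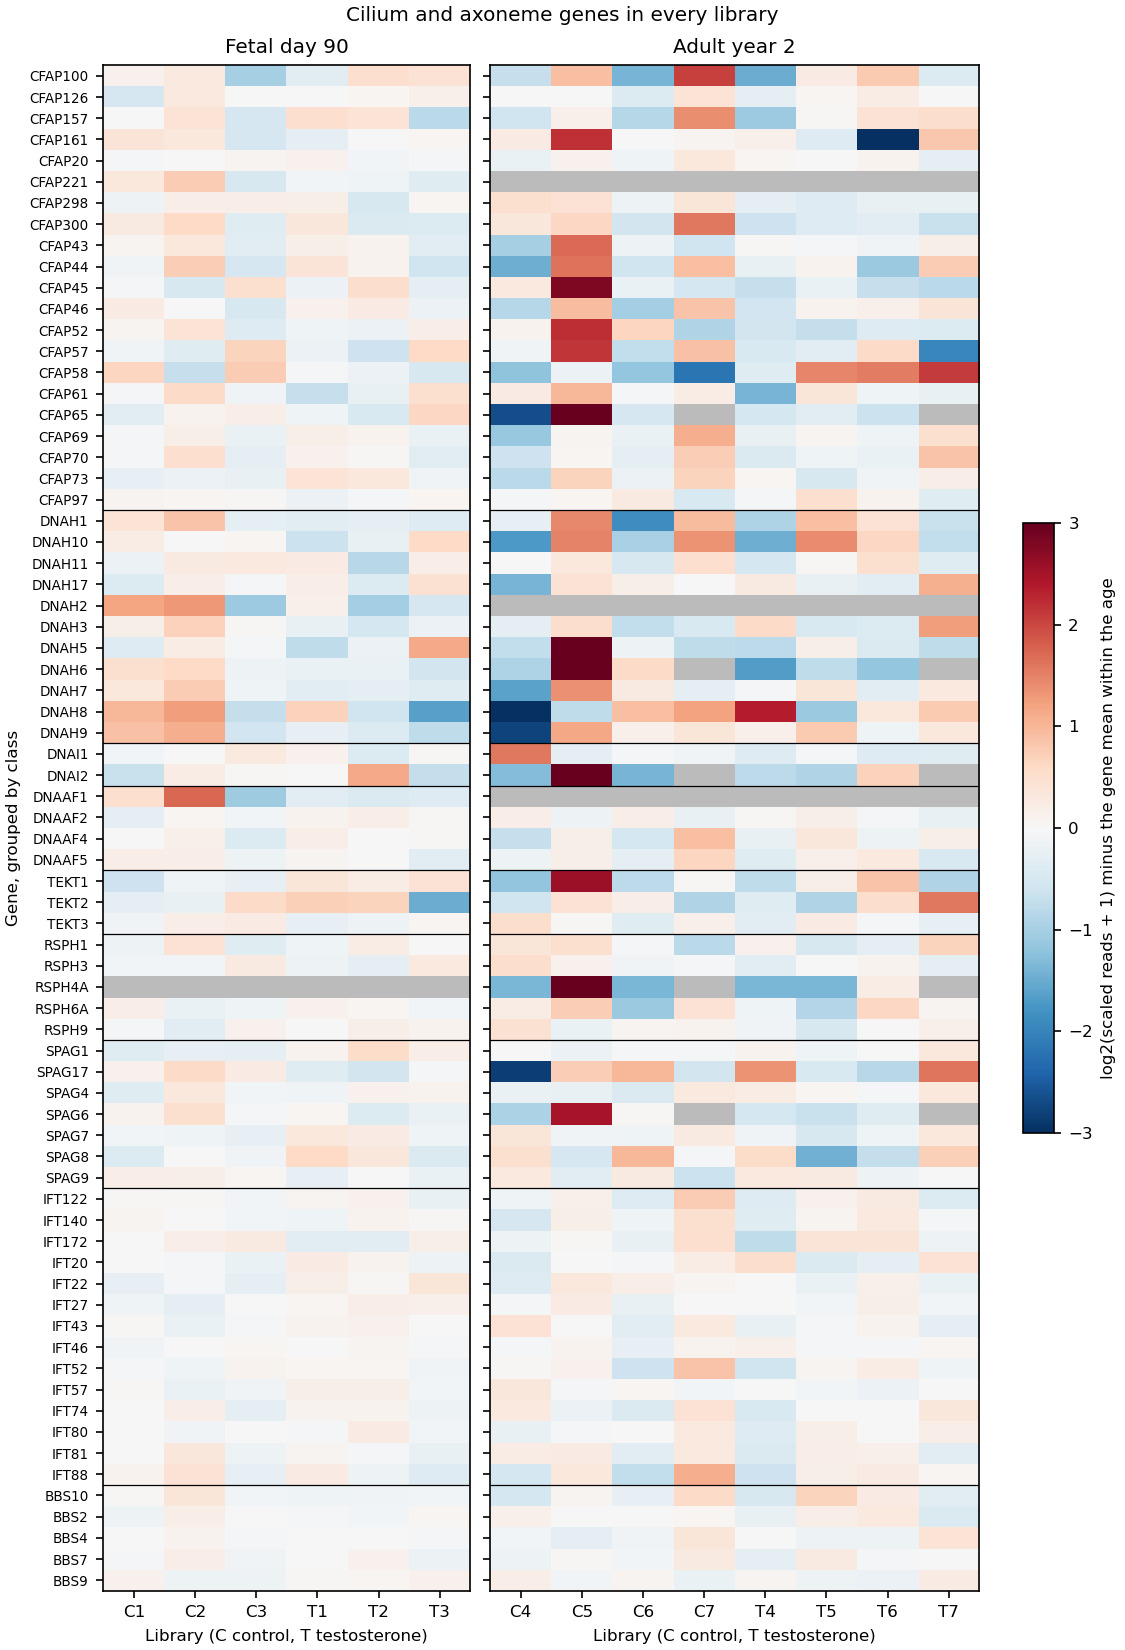
Each row is 1 member and each column 1 library, fetal on the left and adult on the right. Colour gives log2(scaled reads + 1) minus the mean of that gene over the libraries of its age, and grey marks a gene with no value there. The adult panel holds stronger colours than the fetal panel in the CFAP, DNAH and TEKT blocks, with control 5 the reddest column, while the IFT and BBS blocks at the bottom are pale in all columns.

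The first comparison asks how the members differ between testosterone and control ovaries on the last day of treatment. Log2 changes are testosterone minus control on log2(normalised count + 1), tested with limma over all genes of the table and adjusted by the Benjamini-Hochberg method. With limma 0 of the 71 members passed an adjusted p of 0.05, where 0.0182% of the 16513 genes tested did, and with DESeq2 and edgeR on the recovered reads 0 passed as well, where DESeq2 called 1.59% and edgeR 0.0242% of all genes. At an unadjusted p under 0.05, 4 members were higher (background 5.26%) and 6 were lower (background 4.5%). The median log2 change of the members was -0.037, beside -0.019 for all genes. Groups did not overlap for 5 members that were higher and 6 that were lower, with backgrounds of 8.88% and 7.46%. As a whole the members thus stood close to the background, and the non-overlapping ones included BBS10 (lower) and CFAP73 (higher), neither with an unadjusted p under 0.05.

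Among the classes the axonemal dynein heavy chains had the lowest median. Of 11 DNAH genes, 9 had a negative log2 change, as did 53.4% of all genes, none passed with limma, DESeq2 or edgeR, and 4 were lower at an unadjusted p under 0.05. The median over the 11 was -0.62, with a range from -1.02 to 0.18. DNAH7, an inner-arm heavy chain, was at 264, 362 and 193.9 normalised counts in controls 1, 2 and 3 and at 168, 178 and 164 after testosterone. All 3 testosterone libraries lay below all 3 controls, and control 2 was the highest (log2 change -0.64, SE 0.23, unadjusted p = 0.0243, limma adjusted p = 0.448). DNAH1, another inner-arm heavy chain, was at 544, 732 and 335 in the controls and at 324, 340.4 and 309.7 after testosterone. Control 3 lay within the testosterone range, so these groups overlapped (log2 change -0.65, SE 0.26, unadjusted p = 0.0345, limma adjusted p = 0.471). DNAH6 was at 186, 201 and 117 in the controls and at 115, 115 and 89.7 after testosterone. Here controls 1 and 2 were high, and control 3 lay only just above the testosterone libraries (log2 change -0.62, SE 0.25, unadjusted p = 0.0373, limma adjusted p = 0.476). DNAH3 was at 83.4, 119 and 74.0 in the controls and at 62.7, 50.6 and 64.2 after testosterone, with no overlap (log2 change -0.61, SE 0.26, unadjusted p = 0.0448, limma adjusted p = 0.5).

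The outer-arm heavy chain gene DNAH9 was at 309.9, 356 and 112 normalised counts in the fetal controls and at 141, 128 and 97.3 after testosterone. Its groups overlapped because control 3 was as low as the testosterone libraries (log2 change -0.93, SE 0.41, unadjusted p = 0.0522, limma adjusted p = 0.517). DNAH2, an inner-arm chain, was at 91.9, 98.8 and 18 in the controls and 44.1, 19.2 and 27.4 after testosterone, and DNAAF1, a factor of dynein arm assembly, was at 20.3, 48.9 and 6.0 and 10.8, 10.1 and 10.4, again with high values in controls 1 and 2 and not in control 3. DNAH11 and DNAH5, both outer-arm chains, did not follow that order. DNAH11 was at 4412, 6016 and 6009 in the controls and 5887, 2808 and 5648 after testosterone, with testosterone 2 the lowest. DNAH5 was at 23.5, 36.2 and 30.0 and 17.6, 27.4 and 68.9, with testosterone 3 the highest.

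The fetal dynein pattern rested on few libraries. Without control 2 the median of the DNAH genes was -0.41 and none was lower at an unadjusted p under 0.05, without control 1 it was -0.56 with none, and without control 3 it was -0.86 with 7. Leaving out testosterone 1, 2 or 3 left 0, 1 and 1 such genes. Over all genes tested, 2.79%, 3.27% and 4.82% were lower by that measure without control 1, 2 and 3, and 3.94%, 3.38% and 7.29% without testosterone 1, 2 and 3. Control 2 was the highest of the 6 libraries for 30 of the 71 members and for 25 of the 31 germ cell and meiosis markers measured in the fetus. These counts stand without the share of all genes for which it was the highest, so they do not show a trait particular to either set. Relative to the mean of the 6 libraries, the DNAH genes averaged 0.34, 0.66 and -0.24 on the log2 scale in controls 1, 2 and 3 and -0.13, -0.45 and -0.18 after testosterone. The germ cell list averaged 0.27, 0.78 and -0.46 in the controls and 0.28, -0.44 and -0.44 after testosterone. Its summed level ran from 28444 to 40413 scaled reads in the controls and from 20712 to 32068 after testosterone, and none of its genes was at 0 in a fetal library. Both sets were high in controls 1 and 2 and low in control 3 and testosterone 2 and 3, whereas testosterone 1 was high in the germ cell list only. Lists of markers of other cell types leaned in both directions. Of 11 smooth muscle markers, 11 had a positive log2 change with a median of 0.55. At an unadjusted p under 0.05, 6 were higher (background 5.26%). DESeq2 called 3 of them higher, where it called 1.59% of all genes either way, and limma called 0. Of 8 granulosa markers, 7 were positive with a median of 0.36, 3 were higher before adjustment, and limma and DESeq2 each called 0. Of 11 luteal markers 10 were negative with a median of -0.19, and of 11 macrophage markers 9 were negative with a median of -0.21. DESeq2 called 1 luteal marker lower and 0 macrophage markers, and limma called 0 of both. The smooth muscle list summed to between 58379 and 73981 scaled reads in the controls and between 78560.0 and 102160.0 after testosterone, and the granulosa list to between 14770.0 and 19856 and between 17658 and 23769, with no gene of either list at 0. The part of germ cells or of any of these other cell types in the dynein values was not tested.

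**Figure D2:**
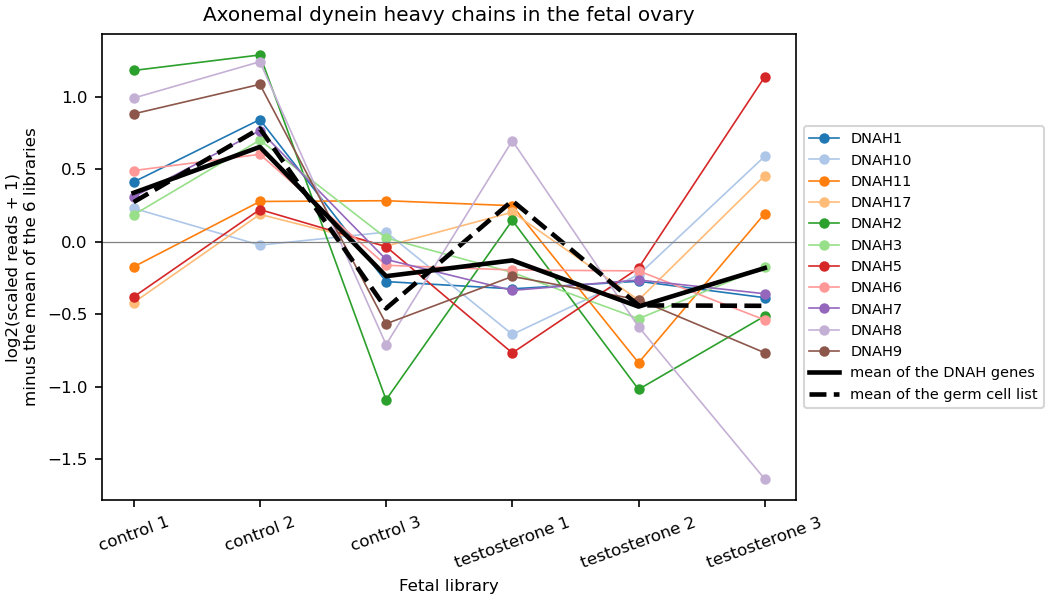
The horizontal axis lists the 6 fetal libraries and the vertical axis gives log2(scaled reads + 1) minus the mean of the 6 libraries. Thin lines are the 11 DNAH genes, the thick solid line is their mean and the thick dashed line is the mean of the germ cell list. Most thin lines stand highest in control 2, and DNAH5 stands highest in testosterone 3.

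Of the other members of the motile classes in the fetus, SPAG17 encodes a central pair protein. It was at 203, 277 and 219.9 normalised counts in the controls and 145, 129 and 179 after testosterone, with no overlap (log2 change -0.62, SE 0.20, unadjusted p = 0.0136, limma adjusted p = 0.386). SPAG1, which like the DNAAF proteins takes part in dynein arm assembly, had the smallest p of all members. It was at 259.7, 282 and 275 in the controls and at 358, 495 and 382 after testosterone. Its controls lay close together and all 3 testosterone libraries were above them (log2 change 0.58, SE 0.16, unadjusted p = 0.00616, limma adjusted p = 0.32; DESeq2 adjusted p = 0.0704). TEKT1, a tektin, was at 33.1, 47.0 and 43.0 and 66.7, 60.8 and 69.9, also with no overlap (log2 change 0.68, SE 0.25, unadjusted p = 0.0255, limma adjusted p = 0.45). SPAG9 was at 2540.2, 2493 and 2298 in the controls and 1874, 2274 and 1909 after testosterone, a smaller difference without overlap (log2 change -0.28, SE 0.10, unadjusted p = 0.0259, limma adjusted p = 0.451). None of the 21 CFAP genes reached an unadjusted p under 0.05, and their log2 changes lay between -0.46 and 0.43. Neither did any of the 4 RSPH, 4 DNAAF or 2 DNAI genes.

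The transport genes differed little in the fetus. Of 14 IFT genes 11 had a positive log2 change, as did 46.6% of all genes, with a median of 0.036 and a range from -0.32 to 0.40, and 2 had an unadjusted p under 0.05. IFT22, a small GTPase of the anterograde IFT-B complex, was at 581, 659 and 556 in the controls and 780.2, 715 and 882 after testosterone. All 3 testosterone libraries were above all 3 controls (log2 change 0.40, SE 0.13, unadjusted p = 0.0126, limma adjusted p = 0.379). IFT27, the other GTPase of that complex, was at 875, 789 and 934 and 987, 1096 and 1058, with no overlap (log2 change 0.28, SE 0.11, unadjusted p = 0.0326, limma adjusted p = 0.469). IFT172, the largest IFT-B subunit, was at 2973, 3435 and 3572 and 2370.1, 2385 and 3334, where testosterone 3 lay among the controls (log2 change -0.32, SE 0.15, unadjusted p = 0.0609, limma adjusted p = 0.535). The 5 BBS genes had log2 changes between -0.21 and 0.14.

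The second comparison asks whether members differ between adult ovaries of control and prenatally treated sheep. With limma 0 of 69 members passed in the first adult table (background 0.00631% of 15856 genes) and 0 of 64 in the second (background 0.00623% of 16064 genes). At an unadjusted p under 0.05 the first table gave 0 members, higher or lower (backgrounds 0.309% and 0.328%). The second gave 1 that was higher and 0 that were lower (backgrounds 0.255% and 0.23%). edgeR called 0 members and 0 genes in both tables. DESeq2 called 0 members in the first table (background 0.0252%) and 1, CFAP58, in the second (background 0.0311%). In a fit of all 8 adult libraries limma, DESeq2 and edgeR called 0 of 64 members, with backgrounds of 0.0127%, 0.0444% and 0.00634%, and 1 was higher and 1 lower at an unadjusted p under 0.05 (backgrounds 0.399% and 0.412%).

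CFAP58 encodes a coiled-coil protein known from the sperm flagellum. In the second adult table controls 4, 6 and 7 held 7.12, 7.38 and 3.16 normalised counts of it, against 51.9, 53.6 and 77.4 for testosterone 5, 6 and 7. Every testosterone library lay far above every control there (log2 change 3.21, SE 0.65, unadjusted p = 0.00157). The adjusted p was 0.00812 with DESeq2, 0.99978 with limma and 0.99992 with edgeR, so the call depended on the test. The authors' deposited table gives CFAP58 a log2 fold change of 3.36 and an adjusted p of 0.00797 in that comparison. In the first adult table controls 4, 5 and 6 held 7.03, 15.3 and 9.22, against 13.2, 50.3 and 52.7 for testosterone 4, 5 and 6. Testosterone 4 lay among the controls there and the groups overlapped (log2 change 1.62, SE 0.73, unadjusted p = 0.0637, limma adjusted p = 0.99991). Over all 8 adult libraries the log2 change was 2.37 (SE 0.69, unadjusted p = 0.00744, limma adjusted p = 1, DESeq2 adjusted p = 0.373). That value lay between 2.03 and 2.88 when each library was left out in turn. Its control mean in the second table, 5.89 normalised counts, lay under the filter on low values, a mean of 10 over the table, which the gene passed through its testosterone libraries.

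CFAP298, a factor of dynein arm assembly, went the other way in the adults. In scaled reads it was at 1539, 1490.0, 998 and 1434 in adult controls 4 to 7 and at 923, 854, 950.2 and 947 in testosterone 4 to 7. The 4 testosterone libraries lay close together and all were below the lowest control, control 6, which stood well below the other 3 controls. Over the 8 libraries the log2 change was -0.55 (SE 0.19, unadjusted p = 0.0171, limma adjusted p = 1), and it was -0.54 in the first table and -0.49 in the second. It was the only member whose 4 controls and 4 testosterone libraries did not overlap, where 0.393% of the 15770 genes tested lay lower without overlap and 0.323% higher. In the fetus CFAP298 was at 2664, 3423 and 3371 normalised counts in the controls and 3353, 2148 and 3090.5 after testosterone, and the groups overlapped (log2 change -0.16, SE 0.18, unadjusted p = 0.403, limma adjusted p = 0.793).

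**Figure D3:**
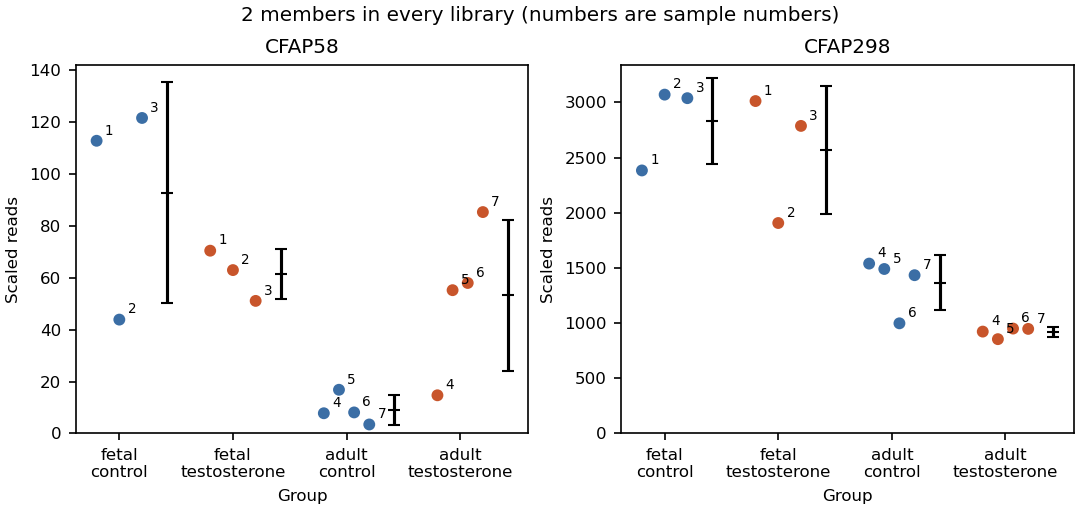
The vertical axes give scaled reads of CFAP58 (left) and CFAP298 (right) and each point is 1 library with its sample number. Black marks are means with SD over 3 fetal or 4 adult libraries. In CFAP58 testosterone 4 sits at the level of the adult controls while testosterone 5, 6 and 7 stand above them, and in CFAP298 the 4 adult testosterone libraries sit below the 4 adult controls.

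Several other members named by p in the adult tables were high in control 5. In the first table, 3 members were lower and 1 higher without overlap (backgrounds 1.92% and 1.65%). Besides CFAP298, CFAP52 and CFAP45, proteins bound inside the doublet microtubules, were the ones that were lower. CFAP52 was at 19.9, 89.8 and 29.7 normalised counts in controls 4, 5 and 6 and 12.2, 11 and 13.9 in the testosterone libraries, so control 5 was the highest by far (log2 change -1.54, SE 0.68, unadjusted p = 0.06, limma adjusted p = 0.99991). CFAP45 was at 37.5, 217 and 27.7 and 18.3, 26.5 and 18.5, with control 5 again above the rest (log2 change -1.51, SE 0.82, unadjusted p = 0.11, limma adjusted p = 0.99991). SPAG4, which encodes a SUN-domain protein, was the one that was higher, at 57.4, 57.1 and 47.1 in the controls and 77.3, 69.4 and 63.8 after testosterone (log2 change 0.38, SE 0.36, unadjusted p = 0.329, limma adjusted p = 0.99991). In the second table, which lacks control 5, 1 member was lower and 2 were higher without overlap (backgrounds 1.56% and 1.05%): CFAP298, and CFAP58 and CFAP43. CFAP43, a protein that tethers inner dynein arms, had 14.2, 26.2 and 18.9 normalised counts for controls 4, 6 and 7, against 29.2, 27.3 and 33.0 for testosterone 5, 6 and 7, and the groups lay close together there. All 9 DNAH genes had a positive log2 change in the second table, where 49% of all genes did, with a median of 0.62. In the first, 8 of 10 did (background 48.5%), with a median of 0.11. Control 4 was the lowest of the 8 adult libraries for 5 of the 9, and the median in the first table was -0.23 without control 4 and 0.75 without control 5, where 9 of the 10 passed the filter; with every library those 9 had 0.16. Control 4 was the lowest adult library for 3352 and the highest for 3683 of 15770 genes. It averaged 2.26 in the smooth muscle list and 1.62 in the endothelial list. The smooth muscle list summed to 1058200.0 scaled reads there and to between 113400.0 and 299940.0 in the other 7, and the part of such cells in the values of control 4 was not tested. Over the 8 libraries 5 were positive and 4 negative (backgrounds 48.3% and 51.7%), with a median of 0.14.

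Adult control 5 stood apart in part of the motile classes, mainly in CFAP and DNAH genes. In the first adult table it was the highest of the 6 libraries for 27 of the 50 members of the motile classes and for 4 of the 19 IFT and BBS genes, where it was the highest for 13.8% of all 15856 genes. It was more than 2 times as high as the next library for 14 of the 50 and for 0 of the 19, where it was so for 0.694% of all genes. Of those 14, CFAP65, DNAH6, DNAI2, RSPH4A and SPAG6 reached the filter, a mean of 10 normalised counts, only through control 5, so they had to be high there. Among the 45 motile-class members that reach it without control 5, that library was the highest for 22 and over 2 times the next for 9, beside 13.4% and 0.412% of the 15765 genes that do. Those 9 were 6 CFAP, 2 DNAH and 1 TEKT genes, and 0 were DNAI, DNAAF, RSPH or SPAG genes. Being highest in control 5 was not particular to the motile classes. That library was also the highest for 8 of 11 cell division genes and 5 of 8 granulosa markers, though over 2 times the next for 0 of both. Of 15 ovarian surface and oviduct epithelium markers it was the highest for 5 and over 2 times the next for 2. Standing over 2 times the next library was thus not particular to the motile classes either. Relative to the median of the other 5 libraries, it was higher by a median of 1.06 on the log2 scale for the CFAP genes and by 1.25 for the DNAH genes, and by 0.19 for the IFT genes. The BBS genes had a median of -0.13 and all genes a median of 0.00596. This is a description of 1 library that was chosen after its values were seen, and no test was made. Over all 8 adult libraries it was the highest for 17 of 64 members (background 6.6%) and over 2 times the next for 8 (background 0.241%). The 14 members of the first table were CFAP43, CFAP44, CFAP45, CFAP52, CFAP57, CFAP65, CFAP161, DNAH5, DNAH6, DNAH7, DNAI2, RSPH4A, SPAG6 and TEKT1.

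The values in single libraries show how far control 5 stood apart. RSPH4A, CFAP65, DNAI2 and SPAG6 are among the 5 that reached the filter only through it, so their high value there is given as a description. RSPH4A, a radial spoke head protein of motile cilia, was at 99.9 scaled reads in control 5, at 0 in controls 4 and 6 and testosterone 4 and 5, and at 2.03 in testosterone 6. It was named after its values were seen, since its median of 0 gives no ratio. CFAP65, known from the sperm flagellum and motile cilia, was at 159 in control 5, at 0 in control 4 and between 3.05 and 4.02 in the 4 remaining libraries. DNAI2, an outer-arm intermediate chain, was at 74.1 in control 5 and between 1.14 and 8.14 elsewhere. These 3 genes have no value in control 7 and testosterone 7, whose levels of them are not known. DNAH5, an outer-arm heavy chain of motile cilia, has all 8 values. It was at 13.0, 252, 19.8 and 12.7 in controls 4 to 7 and at 12.4, 25.1, 16.3 and 12.5 in testosterone 4 to 7. Control 5 thus stood far above the other 7 libraries, which lay between 12.4 and 25.1. TEKT1 was at 14.3, 204, 18.9 and 34.6 in the controls and at 19.2, 38.1, 61.0 and 17.6 after testosterone, and CFAP45 at 41.5, 239, 28.8 and 23.0 and 20.4, 29.1, 20.3 and 18.8. SPAG6, of the central pair, was at 78.5 in control 5 and between 6.48 and 13.7 in the other 5 libraries that have a value.

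Not every motile-class member followed that library. DNAI1, the other outer-arm intermediate chain, was at 361 in control 5 and at 1316 in control 4, with the remaining 6 libraries between 337 and 429. DNAH9 was at 58.3, 916, 456 and 522 in controls 4 to 7 and at 450.1, 701, 372 and 511 in testosterone 4 to 7, so control 5 was highest but control 4 stood apart as the one low library. SPAG17 was at 10.4, 134, 160.1 and 54.1 and 207, 58.2, 44.8 and 245. Control 6, testosterone 4 and testosterone 7, the libraries high in STAR, were the 3 that exceeded control 5. DNAH8, an outer-arm chain of the sperm flagellum, was highest in testosterone 4 with 65.6, and TEKT2 in testosterone 7 with 186. SPAG8, a microtubule inner protein, was highest in control 6 with 119.7 and lowest in testosterone 5 with 21.1. RSPH1, of the radial spoke head, was highest in testosterone 7 with 219.6 and lowest in control 7 with 78.3, next to 193 in control 5.

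Genes outside the member list were read beside control 5 from lists of regulators and markers. FOXJ1, the transcription factor that switches on the motile cilium programme, was at 122 scaled reads in control 5 and between 0 and 6.02 in the 5 other libraries of the first adult table, and it has no row in the fetal and second adult tables used here. It reached the filter, a mean of 10 normalised counts, only through control 5, so its high value there is given as a description. Of 13 multiciliogenesis regulators in the first adult table, 2 reached the filter only that way. Among the 11 that reach it without control 5, that library was the highest for 5 and over 2 times the next for 1. TP73, which acts upstream of FOXJ1 in mouse airway cells, was at 36.3, 72.9, 31.5 and 9.21 in controls 4 to 7 and 17.0, 14.1, 6.10 and 10 in testosterone 4 to 7, with control 5 the highest. RFX2 and RFX3, transcription factors of ciliary genes, did not peak there: RFX2 was highest in control 4 (638, against 150.3 in control 5), and RFX3 in testosterone 5 (195, against 110.0). MCIDAS and GMNC, the early factors of multiciliated cells, have no row in the tables used here. Of 89 other axonemal genes in a list outside the members, control 5 was the highest of the first table for 51 and over 2 times the next library for 21, and 12 of the 89 reached the filter only through it. Among the 77 that reach it without control 5, the counts were 39 and 9. Of the 81 with a value in all 8 adult libraries, control 5 was the highest for 29 and over 2 times the next for 6.

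Markers in a separate list for ciliated epithelium were less uniform. Control 5 was the highest of the first table for 5 of 12 of them and over 2 times the next library for 2, and 1 of the 12 reached the filter only through it. Among the 11 markers that reach it without control 5, the counts were 4 and 1. Averaged over the 11 with a value in all 8 adult libraries, they stood at -1.10, 0.86, -0.18 and 0.33 relative to the mean of the 8 on the log2 scale in controls 4 to 7, and between -0.22 and 0.36 after testosterone. Their summed level ran from 2824 to 4364 scaled reads in the controls and from 2002 to 4261 after testosterone, and 1 of them, SPATA18, was at 0 in control 4. By that sum control 5, at 3809, lay below control 7 and testosterone 5, at 4364 and 4261. FAM92B, the marker with no value in control 7 and testosterone 7, was at 77.4 in control 5, at 0 in control 4 and at 5.70 at most in the others. It is the marker that reached the filter only through control 5, so its high value there is given as a description. The list of ovarian surface and oviduct epithelium averaged 1.07 in control 5 and 1.03 in testosterone 5, while the other 6 libraries ranged from -0.91 to 0.46. Its summed level was 8785 in control 5, between 2986 and 3793 in the other controls and between 2222 and 3997 after testosterone, and 2 of its genes, LRRN4 and CLDN7, were at 0 in control 7. OVGP1, the oviductal glycoprotein, was at 23.3, 564, 20.7 and 202 in the controls and 30.5, 76.3, 66.1 and 38.9 after testosterone, and the keratin gene KRT8 at 432, 5819.8, 991 and 213 and 1506, 893, 377 and 616. Both were highest in control 5, while KRT7 was highest in testosterone 5 (199, against 123). OVGP1, KRT8 and KRT7 were chosen after their values were seen. Control 5 was also high in the granulosa list, with a mean of 1.27 beside 1.72 in control 7 and -2.14 in control 4. The part of such epithelium, of granulosa cells or of dividing cells in the values of control 5 was not tested.

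**Figure D4:**
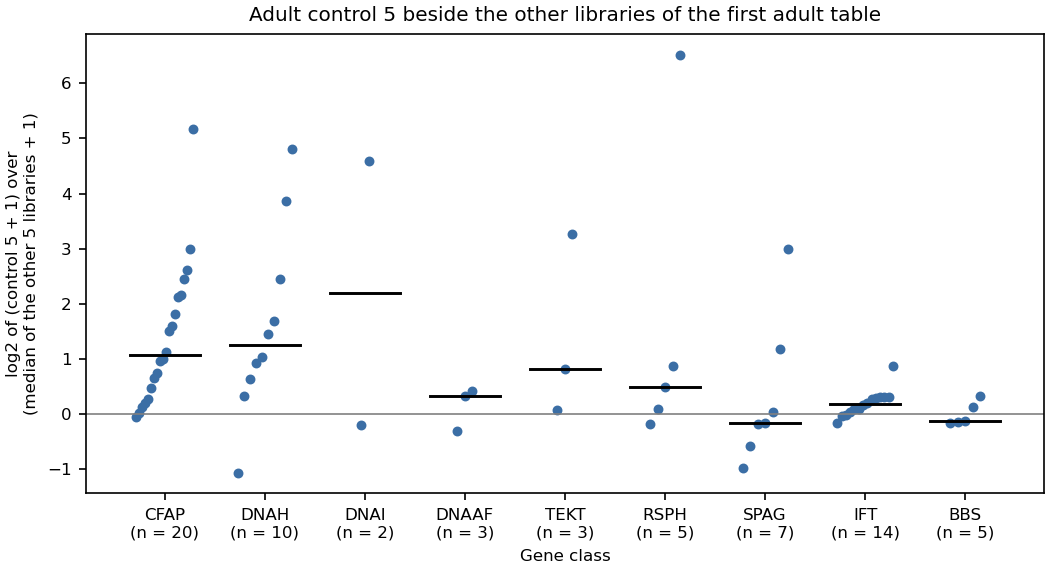
Each point is 1 member in the first adult table. The vertical axis gives log2 of its normalised count in control 5 plus 1 over the median of the other 5 libraries plus 1, and black bars are medians of each class. Points of the CFAP, DNAH, DNAI, RSPH, SPAG and TEKT classes reach far above 0, up to 6.52 for RSPH4A. The IFT points reach 0.87 at most and the BBS points 0.33. CFAP65, DNAH6, DNAI2, RSPH4A and SPAG6 reached the filter only through control 5, so their points had to be high. Without them the CFAP, DNAH and TEKT points still reach up to 3.87, for DNAH5. The highest points left in the other classes are DNAI1 at -0.20, RSPH6A at 0.88 and SPAG17 at 1.18, and RSPH6A is level with the highest IFT point.

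This library bears on the adult contrast, because it is a control of the first table only. With it, the 50 motile-class members of the first table had a median log2 change of -0.039, and 26 were negative. Without it, 45 remained above the filter, with a median of 0.26, beside -0.023 for all genes. The same 45 had a median of 0.037 with control 5 in the fit. Control 5 was singled out after its high values in these members were seen. A rise of their log2 changes without it follows from that choice and is no separate result. The 50 had a median of -0.13 without control 4 and of -0.29 without control 6. The 19 IFT and BBS genes had a median of 0.048 with control 5 and of 0.12 without it. With limma, 0 members passed with or without control 5, and 0 reached an unadjusted p under 0.05.

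The transport genes were steadier across adult libraries. IFT122 and IFT140 are subunits of the retrograde IFT-A complex. IFT122 was at 1742, 2104, 1462 and 3232 scaled reads in controls 4 to 7 and at 1454, 2089, 2283 and 1443 in testosterone 4 to 7, and IFT140 was at 1958, 3138, 2565 and 3918 and 2159, 2951, 3428 and 2695. Both were highest in control 7 and in neither did the groups separate. IFT88, a core IFT-B subunit, was at 409.7, 744, 355 and 1256 and 384, 675, 707 and 619, also highest in control 7. Control 7 was the highest of the 8 adult libraries for 8 of the 14 IFT genes and for 0 of the 5 BBS genes, and it was the highest for 19.4% of all 15770 genes. It was also the highest for 12 of 32 other transport and BBSome genes and for 11 of 26 transition zone genes outside the member list. It was also the highest library in the mean of the cell division list (1.01) and of the granulosa list (1.72), and the part of these cells in the IFT values was not tested. The log2 changes of the 14 IFT genes ranged from -0.19 to 0.24 in the first adult table, and from -0.18 to 0.24 in the second. Among BBS genes, BBS2, a BBSome subunit, was at 1562, 1385, 1391 and 1468 and 1206, 1615, 1716 and 1036. BBS10, a chaperonin-like protein that helps assemble the BBSome, had the widest range of its class, at 154, 236, 188 and 331 and 161, 356, 263 and 178, and its groups overlapped. IFT81, of the IFT-B complex, was at 582, 590.2, 395 and 613 and 368, 577, 556 and 403, low in control 6, testosterone 4 and testosterone 7, which are the libraries high in STAR. Over the 8 libraries the 14 IFT and 5 BBS genes had log2 changes between -0.21 and 0.11.

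Whether the testosterone effect differed between ages was tested as an interaction over all 14 libraries. With limma and with edgeR 0 of 64 members passed, where limma called 0.00659% of 15175 genes. At an unadjusted p under 0.05, 1 member had a higher adult effect and 0 a lower one (backgrounds 0.646% and 0.923%). It was CFAP58 (difference of log2 changes, adult minus fetal, 2.83, SE 0.87, unadjusted p = 0.00612, limma adjusted p = 0.99994). In the fetus CFAP58 had been at 126, 48.9 and 135 normalised counts in the controls and 78.4, 70.9 and 56.7 after testosterone, with control 2 below the testosterone libraries (log2 change -0.46, SE 0.39, unadjusted p = 0.27, limma adjusted p = 0.714). Of the 9 DNAH genes with values at both ages 8 had a positive difference (background 48.9%), with a median of 0.52 and a smallest adjusted p of 0.99994. SPAG1, IFT22 and SPAG7, whose fetal log2 changes were positive, had differences of -0.44, -0.51 and -0.50, with unadjusted p of 0.1, 0.0774 and 0.092 and limma adjusted p of 0.99994 for each.

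Levels in control ovaries of both ages are given as a description, since the ages came in tables normalised apart from each other, and age and table cannot be told apart. Of 64 members with values in all libraries, the 4 adult controls were all below the 3 fetal controls for 16 (background 20.6%) and all above them for 6 (background 19.9%). The median log2 ratio of adult to fetal control means was -0.059, beside 0.12 for all 15175 genes. Of 19 CFAP genes 7 were lower without overlap and 0 higher, and of 9 DNAH genes 4 were lower and 0 higher. Of 14 IFT genes 0 were lower and 2 higher, IFT46 and IFT57.

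The 16 lower members were CFAP20, CFAP57, CFAP58, CFAP61, CFAP70, CFAP298, CFAP300, DNAH1, DNAH7, DNAH10, DNAH11, BBS2, BBS7, RSPH3, SPAG17 and TEKT3. SPAG6 and DNAH6 have no value in control 7 and are given beside them. SPAG6 was at 578, 755 and 521 scaled reads in fetal controls 1 to 3 and at 6.48, 78.5 and 13.7 in adult controls 4, 5 and 6 (log2 ratio -4.23). DNAH11 was at 3946, 5395 and 5415 in fetal and 651, 815, 467 and 924 in adult controls (log2 ratio -2.78). DNAH1 was at 487, 656 and 302 and 54.5, 177, 17.1 and 126 (log2 ratio -2.36), and DNAH6 at 166, 179.9 and 105 in fetal controls and 2.59, 102 and 9.11 in adult controls 4, 5 and 6. In all 4 genes the highest adult control stayed below the lowest fetal control, and control 5 or control 7 was the highest adult. CFAP58 was at 113, 43.9 and 122 in fetal and 7.78, 16.8, 8.10 and 3.46 in adult controls (log2 ratio -3.36), and CFAP57, a protein of the inner-arm region, at 91.8, 76.3 and 158 and 11.7, 59.5, 7.2 and 24.2. In testosterone 5, 6 and 7, CFAP58 was at 55.2, 58.0 and 85.3, within the range of the 6 fetal libraries. BBS2 and BBS7, both BBSome subunits, were the transport genes that were lower, BBS7 at 523, 622 and 503 and 331, 374, 345 and 439.9. Germ cell and meiosis markers were lower in all adult controls for 13 of 16 genes and oocyte markers for 8 of 9, and their part in the lower members was not tested.

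The members with the largest ratio of adult to fetal control means overlapped between ages. CFAP100 was at 41.1, 45.6 and 18 scaled reads in fetal and 73.9, 223, 45.0 and 495 in adult controls. The 4 adult values spanned a wide range, with control 7 and control 5 high and control 6 level with the fetal values (log2 ratio 2.58). CFAP157, a protein of the basal body region, was at 62.1, 83.3 and 44.1 and 98.5, 165, 81.9 and 392, high in the same 2 libraries. The ratios of CFAP45 and DNAH5 rested on control 5, since the other 3 adult controls were between 23.0 and 41.5 for CFAP45 and between 12.7 and 19.8 for DNAH5, next to fetal values of 20.1, 14.9 and 29.7 and of 21, 32.5 and 27.0. The 6 members that were higher in all adult controls were DNAAF2, IFT46, IFT57, RSPH9, SPAG1 and SPAG7. Among them were RSPH9, a radial spoke head protein, at 124, 102 and 141 in fetal and 290.4, 185, 225 and 227 in adult controls, and SPAG1 at 232, 253 and 248 and 427, 375, 414 and 409. IFT46, of the IFT-B complex, was at 964, 1058 and 1093 and 1439, 1615, 1256 and 1605.

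**Figure D5:**
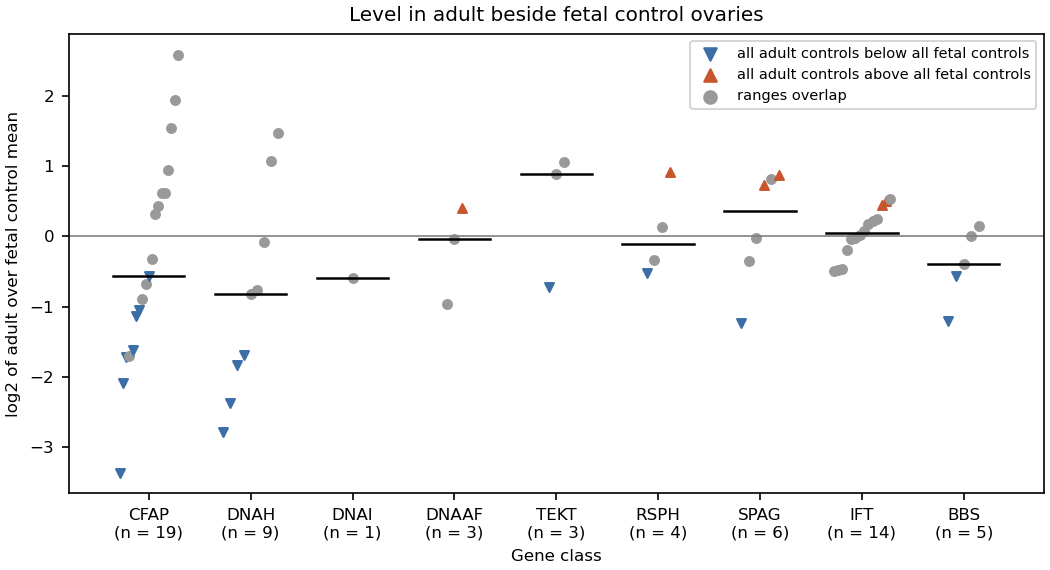
Each symbol is 1 of the 64 members with values in all 14 libraries, placed by class. The vertical axis gives log2 of the mean scaled reads of 4 adult controls over that of 3 fetal controls, triangles mark members whose ages do not overlap and black bars are class medians. The CFAP and DNAH classes spread widest and hold 11 of the 16 members that were lower, and the IFT class stays between -0.49 and 0.53.

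Other genes of the pathway, from lists outside the member rule, gave 1 call with limma after testosterone. EFHB, an EF-hand protein found inside doublet microtubules, rose in the fetus, where it was at 113, 104 and 98.2 scaled reads in the controls and 412, 376 and 336 after testosterone (log2 change 1.83, SE 0.16, limma adjusted p = 0.0218). All 3 testosterone libraries stood far above the 3 controls, and DESeq2 and edgeR called it too. It was the only one of 90 other axonemal genes to pass in the fetus with limma, and over these the median log2 change was -0.026. In the adults EFHB was at 136, 41.5, 23.4 and 25.3 in controls 4 to 7 and 383, 106, 96.6 and 109 in testosterone 4 to 7, and control 4 lay within the testosterone range (log2 change 1.72 over 8 libraries, unadjusted p = 0.0301, limma adjusted p = 1). HYDIN, a central pair protein, had the smallest p of that list in the second adult table, with an unadjusted p of 0.0464 (log2 change 1.59, limma adjusted p = 0.99978). With limma 0 of 32 other transport and BBSome genes passed in the fetus, 0 of 27 transition zone genes and 0 of 28 basal body and primary cilium signalling genes, and 2, 0 and 2 of them had an unadjusted p under 0.05 (backgrounds 5.26% higher and 4.5% lower). DESeq2 called 1 gene of these 3 lists, where it called 1.59% of all genes, so the lists did not exceed the background. It was TTBK2, a kinase that starts ciliogenesis at the basal body, with a log2 change of -0.61 (limma adjusted p = 0.237, DESeq2 adjusted p = 0.00372). PROM1, a membrane protein counted here among the ciliated epithelium markers, was the only 1 of 15 of those markers that DESeq2 called in the fetus, at 2621, 2373 and 1803 scaled reads in the controls and 3624, 3510.2 and 3776 after testosterone (log2 change 0.70, limma adjusted p = 0.223, DESeq2 adjusted p = 0.0014). In the adults 0 genes of the transport, transition zone and basal body lists passed with limma or DESeq2, and with limma 0 had an unadjusted p under 0.05. Of the multiciliogenesis regulators 0 of 14 passed in the fetus with limma, with RFX5 and RFX7 lower at an unadjusted p under 0.05 (background 4.5%), and none passed in the adults, where TP73 in the first table had the smallest p (log2 change -1.82, unadjusted p = 0.0264, limma adjusted p = 0.99991).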

How the data were processed

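The submitters' processing notes name Trimmomatic 0.36 and STAR 2.5.2b, a trimmer and an aligner, and the series text names DESeq2. Sources used here do not give the counting program, genome build or annotation. What the authors deposited is 3 tables with a signal column per library, a log2 fold change and p-values. The signal is a read count over a size factor. Dividing each library by the value of 1 read gave whole reads for 100% of values, with a tolerance of 0.01 read. Control 6 had 26389902 reads in the first adult table and 33417500 in the second, and the larger set was used for scaled reads where a gene has it.

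limma 3.58.1 (R 4.3.3) with a variance trend tested log2(value + 1) where a gene's mean reached 10, adjusted over all genes of a table. DESeq2 1.42.0 and edgeR 4.0.16 (quasi-likelihood) used recovered reads. These scripts were tested on simulated data. Alternatives were other filters (1 and 50), pseudocounts (0.5 and 5), quantile normalisation, TMM scaling, the sample number as a block, all 8 adult libraries joined and leaving out each library. Added after seeing the data were DESeq2, edgeR and the block on the joined libraries, and leaving out control libraries from the levels at both ages.

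The members and lists were chosen with earlier results of these data known. Named members passed a test, were among the 8 smallest p per direction in a comparison, among 2 per class by the ratio of highest to median library at an age, or among 6 per direction by the ratio of ages. The text gives values for part of them. List genes were named if they passed or were among the 3 of smallest p. Other members and genes named were chosen after their values were seen. Sequences and coordinates were not used.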

Additional observations from a re-analysis of the deposited data

Results flagged for a closer look

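In 10 of 128 groups of 4 adult libraries, 1 library lay so far from the other 3 that its gap to the nearest, divided by the whole range, was above Dixon's critical value of 0.829. That value stands for 1 group in 20 only where values are independent and normally distributed. Scaled reads were used here without a log transform, and members of 1 library are not independent. The count of 10 is therefore not set against that share. Control 5 was the high library for 5 of the 10 groups, with 77.4 scaled reads of CFAP161, 107 of CFAP43, 239 of CFAP45, 252 of DNAH5 and 204 of TEKT1. Control 4 was high in DNAI1 with 1316, and control 6 was low in IFT81 with 395. Among the testosterone libraries, number 5 was high in DNAI1 with 429 and in CFAP45 with 29.1, and number 7 was high in CFAP70 with 322. The fetal groups of 3 libraries are too small for this measure.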

How the results depend on the processing

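The count of members called was 0 in every comparison with limma under each filter, pseudocount, scaling and left-out library, and the one exception among the tests was DESeq2 in the second adult table, which called 1 member, CFAP58, with a log2 change of 3.36; the cause was not tested. Log2 changes of named members that were not called changed sign in places. Fitting all 8 adult libraries gave -0.066 for IFT88 and 0.018 for RSPH1, in place of positive and negative values in the first table. Leaving out each adult library, within a table or from all 8, gave log2 changes in these ranges for the first table: BBS10 -0.15 to 0.69, DNAAF4 -0.15 to 0.65, CFAP69 -0.27 to 0.57, DNAH9 -0.40 to 1.58, IFT88 -0.32 to 0.55 and RSPH1 -0.66 to 0.18. For the second table they were DNAH9 -0.28 to 1.65, TEKT2 -0.030 to 1.49, CFAP46 -0.28 to 1.17, DNAH17 -0.0025 to 0.89, DNAH7 -0.38 to 1.08, CFAP43 -0.30 to 0.82 and CFAP161 -1.80 to 0.10. These ranges take in fits of all 8 libraries, which hold libraries that the table lacks. Leaving out a library within the table alone changed the sign only for CFAP69 and DNAH9 in the first and CFAP161 in the second. The other members listed kept their sign there, such as BBS10 (0.11 to 0.69) in the first and TEKT2 (0.27 to 1.49) in the second. The sample number as a replicate block gave -0.16 for DNAH9 and 0.017 for SPAG7 in the second table and called 0 members in each comparison. Same-numbered libraries did not deviate together in every pair (correlations of 0.13, 0.009 and 0.403 in the fetus and from -0.642 to 0.295 over the 8 adult libraries), so the numbers were not taken to pair samples. The number of members lower in all adult than in all fetal controls was 16, was 17 with TMM scaling and ranged from 16 to 22 when each control library was left out. The number of libraries, 3 or 4 a group, limits the precision of every value.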
